A study of Mus musculus with 4 samples.

Results

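A set of 10 genes of endocytosis and absorption was followed in day 9 cardiac cultures of mouse embryonic stem cells (ESCs). The genes are *Amn*, *Cubn*, *Lrp2*, *Dab2*, *Vil1*, *Fabp1*, *Fabp2*, *Rbp4*, *Cdh17* and *Mttp*, chosen by name because visceral endoderm or gut is known to use them. All 10 were found, once each, among the 24637 genes of the table. Messenger RNA was sequenced from 4 ESC lines, 2 WT (genotype Taf4+/+) and 2 *Taf4a*-/- (Taf4-/-), each a line of its own derived from blastocysts of heterozygous crosses and grown on mouse embryonic fibroblast feeders. Every line was cultured for 5 days as embryoid bodies in medium with 20% serum and for 9 further days on gelatin-coated plates, so the genotypes differ in *Taf4a*, which encodes a subunit of the general transcription factor TFIID, and share everything else that the labels give. No sample was taken before differentiation or of sorted endoderm, and a genotype is represented by 2 lines.

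Visceral endoderm is the polarised epithelium that covers the early embryo and later lines the yolk sac. It takes up maternal proteins, lipids and vitamins at its apical surface, digests or repackages them, and secretes carriers and lipoproteins to the embryo. The uptake rests on giant receptors. Megalin, encoded by *Lrp2*, crosses the membrane, whereas cubilin, encoded by *Cubn*, has no membrane anchor of its own and reaches the surface with amnionless, encoded by *Amn*. The adaptor Dab2 links the receptor tails to clathrin. Villin, encoded by *Vil1*, bundles the actin of microvilli, and *Cdh17* encodes a cadherin of intestinal epithelium. Fatty acid binding proteins (*Fabp1* and *Fabp2*) carry lipid inside the cell, the transfer protein encoded by *Mttp* loads lipid onto apolipoprotein B, and *Rbp4* encodes the secreted carrier of retinol.

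The libraries held 21732746 to 27733034 reads on genes. Values are read counts that the authors divided by 1 size factor per library, called normalized counts here, in which a read was worth 0.877 to 1.11. Genotypes were compared with limma on log2(normalized count + 1) over the 16926 genes whose mean reached 10. On this scale the changes of genes with few reads look smaller than they are. Of these genes, 17.3% were called lower and 11.3% higher with *Taf4a*-/- as the label (p-values adjusted by Benjamini and Hochberg, threshold 0.05), and the median log2 fold change was -0.01. In 36.6% both of these libraries lay below both WT libraries. *Taf4a* RNA itself did not fall, with 889 and 678 normalized counts in WT against 1722 and 1799 under the *Taf4a*-/- label (log2 fold change 1.18, adjusted p = 0.00569), so genotypes are named by their labels. The null allele lacks a pair of exons, and a count over the whole gene does not check it. The cultures are labelled cardiac cells, and all 7 cardiomyocyte markers examined fell, to summed levels of 1547 and 1718 normalized counts from 19532 and 21830 in WT.

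Of the 10 uptake genes, 8 passed the filter on low values, and 7 of these fell in the libraries labelled *Taf4a*-/- (against 17.3% of all genes tested). None rose. *Lrp2* did not pass the threshold, and *Fabp1* and *Cdh17* had too few reads to be tested. The falls ranged from -1.61 on the log2 scale for *Dab2* to -4.995 for *Amn*. The place of *Amn* depends on the value added before the log. With 10 added in place of 1 it was at -3.99, and *Cubn* (-4.82) and *Vil1* (-4.04) fell further. Both libraries labelled *Taf4a*-/- lay below both WT libraries for 9 of the 10 genes, *Lrp2* being the exception. Among the 8 members tested this was so for 7, against 36.6% of all genes tested, and *Fabp2* reached the filter only through WT. In RNA of a whole culture, fewer cells of a type and less RNA per cell cannot be told apart. With 2 libraries against 2, an exact two-sided permutation test of a single gene cannot go below p = 0.333, so each test rests on the spread that limma shares across genes.

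**Figure D1:**
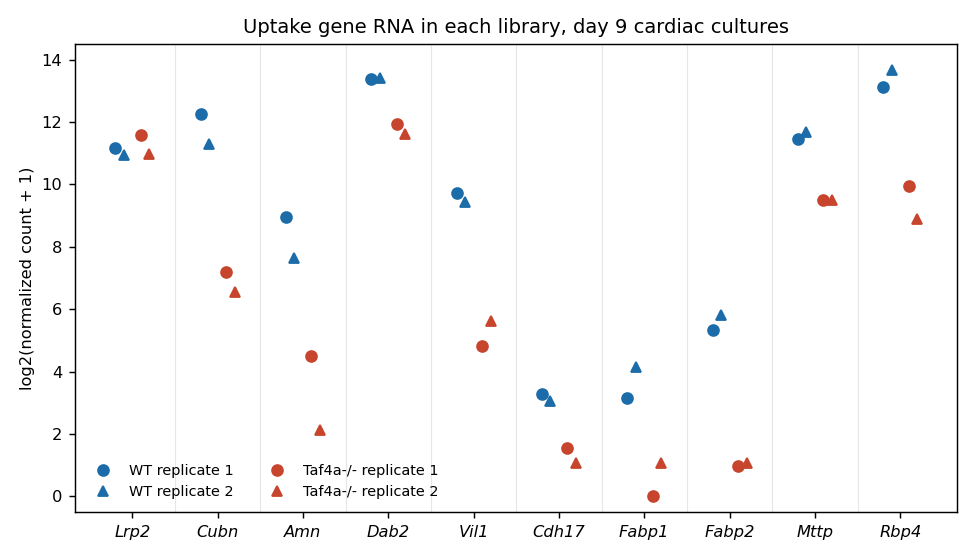
Normalized counts of the 10 uptake genes on a log2 scale with 1 added (vertical axis), by gene, with circles for replicate 1 and triangles for replicate 2 of WT (blue) and of the libraries labelled Taf4a-/- (red). The red points lie under the blue ones in 9 genes, and in Lrp2 they overlap.

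**Figure D2:**
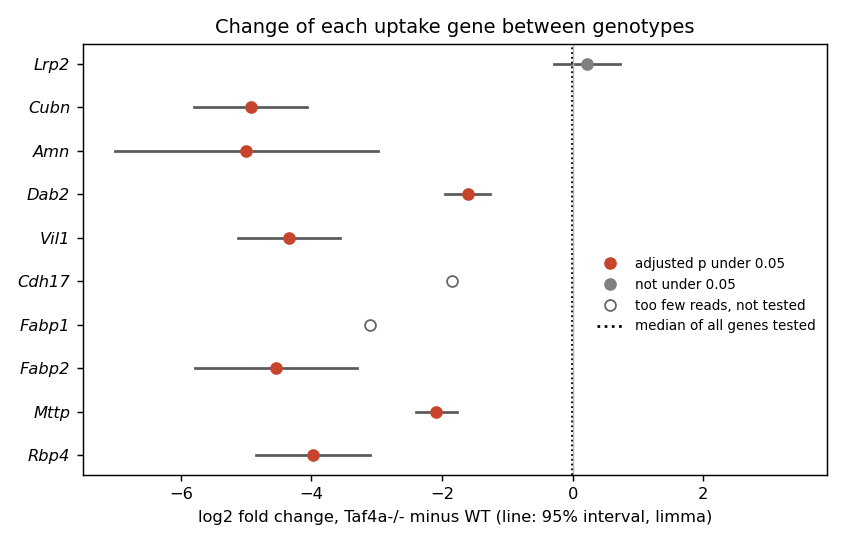
Log2 fold change of each uptake gene between the libraries labelled Taf4a-/- and WT (horizontal axis), with 95% intervals from limma for the 8 genes tested and open circles for the 2 that were not tested. The interval of Lrp2 runs from -0.29 to 0.72, and those of the other 7 end at -1.27 or lower.

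Among the receptors, *Cubn* and *Amn* fell and *Lrp2* did not pass the test. *Cubn* (ENSMUSG00000026726) had 4933 and 2527 normalized counts in WT replicate 1 and replicate 2, against 144 and 91.8 in those labelled *Taf4a*-/-. Values below keep this order of replicates. The genotypes were far apart, and 3.16% of the WT mean was left. By limma it fell by 4.93 on the log2 scale (standard error, SE, 0.36, adjusted p = 0.00123). *Cubn* lies on the minus strand of chromosome 2 (NCBIM37) from 13197965 to 13413551, and 161 nt of its exons overlap a non-coding gene on the other strand, whose reads cannot be told apart without strand.

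*Amn* (ENSMUSG00000021278), on the plus strand of chromosome 12 from 112509322 to 112514637, had 493 and 199 normalized counts in WT, against 21.5 and 3.32 under the *Taf4a*-/- label. Each genotype had 1 line clearly above the other, but the genotypes did not overlap. Its log2 fold change of -4.995 (SE 0.83, limma adjusted p = 0.00991) had the largest SE of the members tested, with a 95% interval from -7.01 to -2.98. Without the library labelled *Taf4a*-/- replicate 1 it was -6.19, and without replicate 2 of that label -3.80. Without WT replicate 1 or without WT replicate 2 the change was -4.35 or -5.65 and no longer passed (limma adjusted p = 0.0617 and 0.0602, range over 14 refits 3.36e-05 to 0.0617).

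*Lrp2* (ENSMUSG00000027070), on the minus strand of chromosome 2 from 69262397 to 69424122, had 2284 and 1986 normalized counts in WT, against 3039 and 2012 in those labelled *Taf4a*-/-. The lower of the latter lay between the WT values. The fitted difference was 0.22 on the log2 scale (SE 0.21, limma adjusted p = 0.467). Its 95% interval allows anything from a level 0.817 times that of WT to one 1.65 times as high, and its lower end of -0.29 lies far above the intervals of *Cubn* and *Amn*. Without the library labelled *Taf4a*-/- replicate 1 the value was -0.08 (adjusted p = 0.852, range over 14 refits 0.160 to 0.852).

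Set against *Lrp2* within each library, with counts divided by exonic length, *Cubn* RNA was 3.05 and 1.799 times as abundant in WT. Under the *Taf4a*-/- label it was 0.0669 and 0.0645 times as abundant. The ratio of *Amn* to *Cubn* did not separate the genotypes, with 0.700 and 0.554 in WT and 1.05 and 0.253 in the others (exact permutation p = 1). The log2 ratio of *Cubn* to *Lrp2* moved by -5.14 between genotypes, with the exact permutation test at its smallest possible p of 0.333 for this ratio and for those of *Amn* and *Dab2* to *Lrp2*. These 4 ratios are among 8 that were computed, and adjusted values could not be lower.

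**Figure D3:**
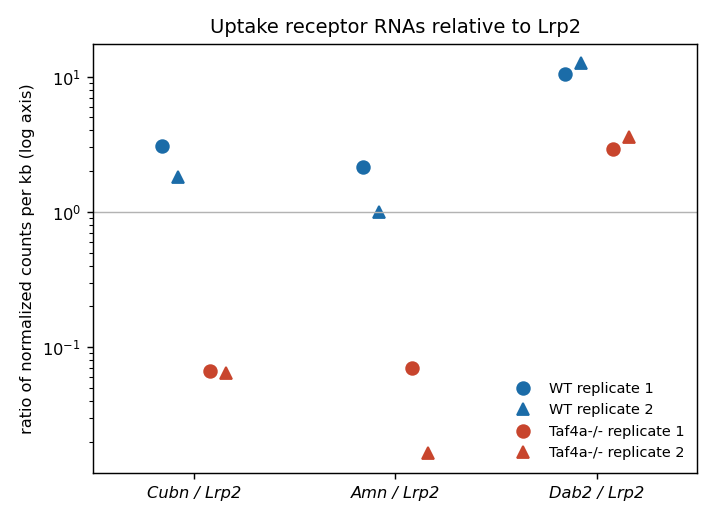
Ratio of normalized counts per kb of exon of Cubn, Amn and Dab2 to those of Lrp2 in each library (vertical log axis), with WT in blue, the libraries labelled Taf4a-/- in red, circles for replicate 1 and triangles for replicate 2. The Cubn and Amn ratios lie near or above 1 in WT and below 0.1 in the libraries labelled Taf4a-/-, and the Dab2 ratio lies above 10 in WT and between 2.93 and 3.56 in the others.

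The sequences before the RefSeq starts of the 3 receptor genes are shown because these genes share a function and differ in their calls, and those of *Fabp1* and *Fabp2* because both were nearly silent in the libraries labelled *Taf4a*-/-. RefSeq promoter entries (GRCm38.p6) were found for 9 members, with 11 starts in all, and every window of 250 bases before a start matched NCBIM37 exactly once, which gives the positions below. Where the annotation of NCBIM37 puts an exon before the RefSeq start, the window was cut so that at most 30 of its bases are printed. Capitals mark, on either strand, letters of 6 motifs. These are TATAAA, the TATA box, then AGATAA, bound by GATA factors, then TGTTTAC, bound by FOXA factors, then GTTAAT, a part of the HNF1 site, then CAAAGTCCA, bound by HNF4, and then TTTATNG, bound by CDX factors.
Cubn (chr2:13413522-13413753, NCBIM37, minus strand): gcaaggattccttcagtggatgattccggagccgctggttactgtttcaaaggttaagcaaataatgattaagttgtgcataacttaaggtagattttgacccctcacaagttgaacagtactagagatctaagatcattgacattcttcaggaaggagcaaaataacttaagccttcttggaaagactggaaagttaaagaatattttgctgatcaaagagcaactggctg
Amn (chr12:112509057-112509306, NCBIM37, plus strand): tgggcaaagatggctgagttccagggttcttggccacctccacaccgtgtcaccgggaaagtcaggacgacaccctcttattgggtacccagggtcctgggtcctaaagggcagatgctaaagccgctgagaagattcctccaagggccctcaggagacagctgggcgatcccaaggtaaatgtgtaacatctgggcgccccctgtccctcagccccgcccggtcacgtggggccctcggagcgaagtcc
Lrp2 (chr2:69424093-69424336, NCBIM37, minus strand): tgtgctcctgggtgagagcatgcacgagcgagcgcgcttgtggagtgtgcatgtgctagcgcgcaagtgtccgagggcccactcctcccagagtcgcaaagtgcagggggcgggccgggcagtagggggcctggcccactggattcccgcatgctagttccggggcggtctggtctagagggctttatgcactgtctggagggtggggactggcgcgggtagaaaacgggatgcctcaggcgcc
Fabp1 (chr6:71149623-71149850, NCBIM37, plus strand): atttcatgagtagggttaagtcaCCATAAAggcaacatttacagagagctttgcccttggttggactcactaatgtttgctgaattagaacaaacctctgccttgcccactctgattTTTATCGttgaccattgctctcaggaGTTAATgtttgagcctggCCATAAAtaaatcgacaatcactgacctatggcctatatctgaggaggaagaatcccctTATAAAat
Fabp2 (chr3:122597740-122597989, NCBIM37, plus strand): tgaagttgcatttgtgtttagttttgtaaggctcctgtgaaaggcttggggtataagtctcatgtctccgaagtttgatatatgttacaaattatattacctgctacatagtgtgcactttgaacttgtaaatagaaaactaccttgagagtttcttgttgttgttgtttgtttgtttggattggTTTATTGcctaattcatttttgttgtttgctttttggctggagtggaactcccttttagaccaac
None of the 6 motifs is found in the windows of *Amn*, *Cubn* or *Lrp2*. Of these windows, that of *Cubn* holds 39.6% G and C, that of *Lrp2* 66.4% and that of *Amn* 61.2%. *Fabp1* holds a TATA box from 30 to 25 bases before the start, an HNF1 match from 107 to 102 bases before it and 3 CDX matches, and *Fabp2* holds 1 CDX match from 65 to 59 bases before it. In windows not printed, the TATA letters are found from 28 to 23 bases before the second start of *Rbp4*, where they lie inside a CDX match, the FOXA letters before the first start of *Rbp4* and the HNF1 letters before the second start of *Dab2*. Over all 32851 promoter windows of the same length, TATA letters are found in 12.4%, CDX in 9.81%, HNF1 in 6.43%, FOXA in 3.17%, GATA in 9.99% and HNF4 in 0.384%. Among the 11 member windows these counts are 2, 3, 2, 1, 0 and 0. The matches are letters in a window and were not tested as sites.

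*Dab2*, which encodes the adaptor that gathers the megalin and cubilin receptors into clathrin-coated pits, had a smaller change than the genes of the cubilin receptor, with a log2 ratio of *Cubn* to *Dab2* that moved by -3.32 (exact permutation p = 0.333, the smallest possible). *Dab2* (ENSMUSG00000022150, chromosome 15 from 6249788 to 6390712, plus strand) had 10563 and 10907 normalized counts in WT, against 3919 and 3151 in those labelled *Taf4a*-/-. Of the WT mean, 32.9% was left, and the lines of a genotype were close to each other. It fell by 1.61 on the log2 scale (SE 0.14, limma adjusted p = 0.00177). Other cells use Dab2 too, macrophages and mesenchymal cells among them, and markers of both moved with it. All 12 macrophage markers fell, 9 of which reached the filter only through WT (median log2 fold change -6.47, summed normalized counts of 11175 and 14391 in WT against 270.2 and 426, with *C1qa* at 0 in both libraries labelled *Taf4a*-/-). Of 7 fibroblast markers, 6 fell (median -3.45, sums of 266533 and 391515 against 32977 and 46854), and none was at 0. Of all genes tested, 17.3% were lower. The part of these cells in the fall of *Dab2* was not tested. In the annotation, exons of *Dab2* share 1374 nt with a second gene entry of the same name, and how reads shared by both were counted is not given in the sources used here.

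Villin RNA fell, and 4.96% of the WT mean was left. *Vil1* (ENSMUSG00000026175), on the plus strand of chromosome 1 from 74455950 to 74482133, had 842 and 691 normalized counts in WT, against 27.4 and 48.7 in those labelled *Taf4a*-/-. The WT lines lay close together and those labelled *Taf4a*-/- less so, and the gap between genotypes was many times larger. This was a log2 fold change of -4.35 (SE 0.32, limma adjusted p = 0.00123). Exons of *Vil1* share 50 nt with *Usp37* on the other strand, whose reads there cannot be told apart without strand. *Cdh17* (ENSMUSG00000028217, chromosome 4 from 11685294 to 11745042, plus strand) was scarcely present in either genotype, with 10 and 7 reads in WT, against 2 and 1. Its level under the *Taf4a*-/- label was 19.3% of WT by reads, with a 95% counting interval (exact, Clopper-Pearson) from 3.62% to 66.6%. With no filter on low values, *Cdh17* did not pass the threshold (log2 fold change -1.85, limma adjusted p = 0.0699).

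The fatty acid binding proteins were modest in WT and close to nothing in the libraries labelled *Taf4a*-/-. *Fabp2*, the intestinal form (ENSMUSG00000023057, chromosome 3 from 122597990 to 122602424), had 45 and 53 reads in WT, or 39.5 and 55.1 normalized counts. It had 1 read in each library labelled *Taf4a*-/-, and the fitted log2 fold change was -4.54 (SE 0.51, limma adjusted p = 0.00337), or -2.36 with pseudocount 10. By reads, 2.23% of the WT level was left, with a counting interval from 0.266% to 8.27%. *Fabp1*, the liver form (ENSMUSG00000054422, chromosome 6 from 71149821 to 71155017), had 9 and 16 reads in WT, against 0 and 1. Here 4.37% was left, with a counting interval from 0.106% to 26.7%. With no filter *Fabp1* passed the threshold (log2 fold change -3.11, limma adjusted p = 0.0258). *Fabp2* entered the test only through its WT libraries, so its call adds little to its read counts. Without molecular identifiers, these intervals hold for counting error alone.

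The secretory side of the epithelium was represented by *Mttp* and *Rbp4*. *Mttp* (ENSMUSG00000028158, chromosome 3 from 137752819 to 137806352, minus strand) had 2834 and 3297 normalized counts in WT, against 718 and 716 in those labelled *Taf4a*-/-. The latter were almost equal, and 23.4% of the WT mean was left. It fell by 2.09 on the log2 scale (SE 0.13, limma adjusted p = 0.000879). *Rbp4* (ENSMUSG00000024990, chromosome 19 from 38191110 to 38199811, minus strand) had 8851 and 13034 normalized counts in WT and fell to 991 and 471. This was a log2 fold change of -3.97 (SE 0.36, limma adjusted p = 0.00194), and 6.68% was left. Adipocytes also make Rbp4. Of their 6 markers, the 2 that were tested fell. *Pparg* went from 99.9 and 126.8 normalized counts to 42.1 and 29.9 (limma adjusted p = 0.0172). *Cidec* went from 49.97 and 18.7 to 3.92 and 1.11 (limma adjusted p = 0.0214). *Cidec* reached the filter only through WT, so that it had to differ to be tested. *Adipoq* was at 0 in both WT libraries and *Lep* at 0 in both of the others, and the 6 summed to 153 and 150 normalized counts in WT and 49.9 and 34.3 in the libraries labelled *Taf4a*-/-. Most of each sum was *Pparg* and *Cidec*, and no other of the 6 was above 3.12 normalized counts in a WT library. The part of adipocytes in the fall of *Rbp4* was not tested.

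Levels of different genes were compared as normalized counts per kb of exon. In WT, *Rbp4* led with 8437 ± 2280 (SD, n = 2), followed by *Dab2* with 1462 ± 33.2 and *Mttp* with 695 ± 74.2. *Cubn* (316 ± 144), *Vil1* (216 ± 30.0), *Amn* (205 ± 123) and *Lrp2* (128 ± 12.6) came next, and each overlapped its neighbour in this order. *Fabp2* (49.0 ± 11.4), *Fabp1* (22.2 ± 11.2) and *Cdh17* (1.79 ± 0.24) were separate from each other and from the genes above. In the libraries labelled *Taf4a*-/-, *Rbp4* (563 ± 283) and *Dab2* (481 ± 73.9) overlapped at the top, and *Mttp* (162.5 ± 0.32) overlapped *Lrp2* (151 ± 43.5). *Vil1* (10.7 ± 4.23), *Cubn* (9.97 ± 3.12) and *Amn* (7.38 ± 7.65) came lower, overlapping between neighbours, and *Fabp2* (1.08 ± 0.093), *Fabp1* (1.00 ± 1.41) and *Cdh17* (0.34 ± 0.13) came last, where *Fabp1* overlapped both of the others, which did not overlap each other. *Lrp2* thus stood at rank 7 in WT and at rank 4 under the *Taf4a*-/- label, above both other receptor genes. Its share of the summed level per kb of the 10 members was 1.36% and 0.913% in WT and 10.9% in each of the other libraries. That sum went from 10047 and 13017 in WT to 1676 and 1102, so the share can rise without a rise of *Lrp2* itself. *Rbp4* alone made up 67.9% and 77.2% of the WT sum.

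Lines of the same genotype differed in individual members. In WT there was no common direction, with 5 members higher in replicate 1 and 5 in replicate 2. *Amn* and *Cubn* were 2.47 and 1.95 times as high in WT replicate 1 as in replicate 2, whereas *Fabp1* and *Rbp4* were 2.11 and 1.47 times as high in replicate 2. In the libraries labelled *Taf4a*-/-, 7 members were higher in replicate 1, and *Amn* (6.49 times) and *Rbp4* (2.10 times) differed most among those with more than 3 reads in a library of this genotype. Of the 3 other members, *Fabp1* and *Fabp2* had at most 1 read in each of these libraries, and *Vil1* was higher in replicate 2. Each is 1 line against another and could not be tested. Between genotypes, the log2 differences of the 9 members other than *Lrp2* were each larger than their differences between lines of a genotype.

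**Figure D4:**
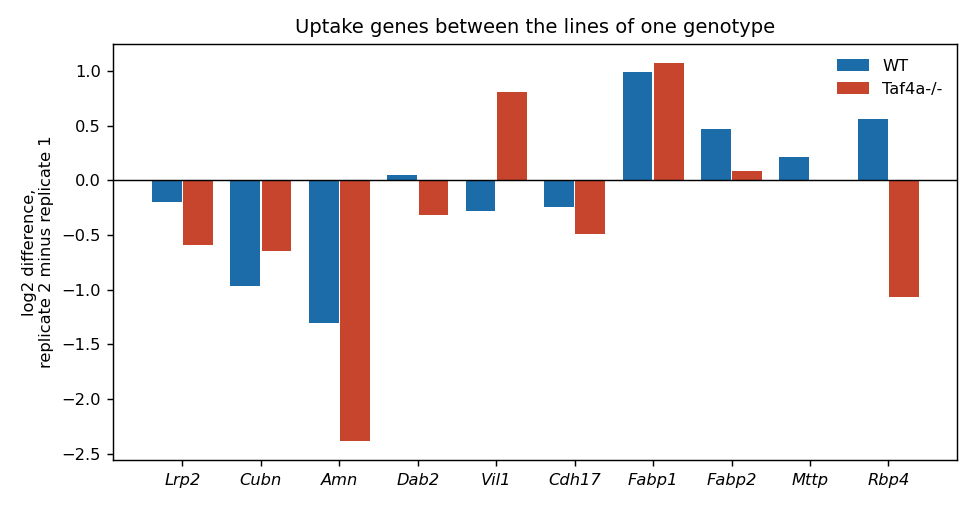
Difference on the log2(normalized count + 1) scale between replicate 2 and replicate 1 (vertical axis) for each uptake gene, in WT (blue bars) and in the libraries labelled Taf4a-/- (red bars), each bar being 1 line against 1 line. Amn and Cubn are lower in replicate 2 of both genotypes, and Rbp4 is higher in replicate 2 of WT and lower in replicate 2 of the libraries labelled Taf4a-/-.

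The genes that work with the members were followed in 6 lists by role. Of 12 genes for ligands of cubilin and megalin, 10 were tested and 9 fell, against 17.3% of all genes tested, with a median log2 fold change of -5.97. Of the 9, *Alb*, *Trf* and *Ambp* reached the mean of 10 only through WT, so that they had to differ to be tested. The same holds for 2 of the genes that fell among those of the brush border, 1 of lipid absorption and 3 of the other binding proteins, in the lists described next. *Apob*, the scaffold of the particles that Mttp fills, fell from 25473 and 16140 normalized counts in WT to 320.1 and 222 (log2 fold change -6.24, SE 0.26, limma adjusted p = 0.000494). *Alb*, the main plasma protein that cubilin takes up, had the largest fall, from 799 and 1797 normalized counts in WT to 0 in both libraries labelled *Taf4a*-/-. The list's median is the same for any value of *Alb* below it. *Apoe*, which encodes a ligand of megalin, fell by 1.72 on the log2 scale (adjusted p = 0.00127). *Clu*, a lipid-binding chaperone, did not pass (-0.54, adjusted p = 0.252). The gene of intrinsic factor, listed as *Gif*, was at 0 in both WT libraries.

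Among 17 genes of lipid absorption and lipoprotein assembly, 14 were tested, 6 fell and 1 rose, with a median of -0.52. Of all genes tested, 17.3% were lower and 11.3% higher. *Apoa1* had the largest fall (-7.46, adjusted p = 0.00102), and *Apob* and *Apoa1* stand in the list of ligands as well. *P4hb*, which encodes the partner subunit of the transfer protein, had 30782 and 42122 normalized counts in WT, against 33162 and 26848 in those labelled *Taf4a*-/-, and did not pass (log2 fold change -0.27, adjusted p = 0.370). *Dgat1*, which encodes an enzyme of triglyceride synthesis, rose (0.59, adjusted p = 0.0255). The list called other binding proteins holds 14 genes of fatty acids and retinoids, with enzymes such as *Rdh10* among them. Of the 14, 11 were tested, 6 fell and 1 rose, with a median of -1.12. *Ttr*, the plasma partner of Rbp4, fell from 5300 and 5625 to 65.6 and 74.1 normalized counts (-6.27, adjusted p = 6.0e-05), and *Crabp2*, which carries retinoic acid to its receptors, rose (1.26, adjusted p = 0.00560). *Fabp5* fell (-1.12, adjusted p = 0.0360), and *Rdh10*, an enzyme of retinoic acid synthesis, did not pass (0.11, adjusted p = 0.741).

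Of 21 genes of the brush border and microvilli, 19 were tested and 8 fell, against 17.3% of all genes tested, with a median of -1.06. *Cdhr2*, a protocadherin of microvillus tips, fell most, from 229.7 and 87.3 normalized counts in WT to 0 in both libraries labelled *Taf4a*-/-, and here too the median does not depend on the fitted value. The actin linkers *Ezr* and *Rdx*, which many epithelia share, were abundant and did not pass (log2 fold changes -0.16 and -0.38, adjusted p = 0.335 and 0.0640). *Myo1a* had the most positive value and did not pass (1.08, adjusted p = 0.388). Of 17 other lipoprotein and scavenger receptors, 16 were tested and 8 fell, against the same 17.3%, with a median of -0.53. *Fcgrt*, the neonatal Fc receptor that carries antibodies across the yolk sac, fell most (-3.86, adjusted p = 0.00101), and *Lrp1* and *Tfrc*, which take up lipoproteins and iron-loaded transferrin, did not pass (-0.33 and 0.22, adjusted p = 0.116 and 0.235). *Igf2r* split the WT lines, with 42372 and 5562 normalized counts, against 30544 and 28657 in those labelled *Taf4a*-/- (log2 fold change 0.95, adjusted p = 0.430).

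The common machinery of endocytosis had the median nearest to 0. Of 22 clathrin and endosome genes, all were tested, 6 fell and none rose, with a median of -0.16, against 17.3% of all genes lower. *Cltc*, the clathrin heavy chain, had 25248 and 32073 normalized counts in WT, against 32905 and 24438 in those labelled *Taf4a*-/- (log2 fold change -0.01, adjusted p = 0.988). *Clcn5*, a chloride transporter of endosomes, and *Ap2a1*, of the clathrin adaptor complex, did not pass either (-0.09 and 0.37, adjusted p = 0.739 and 0.0524). No difference between these lists was tested.

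**Figure D5:**
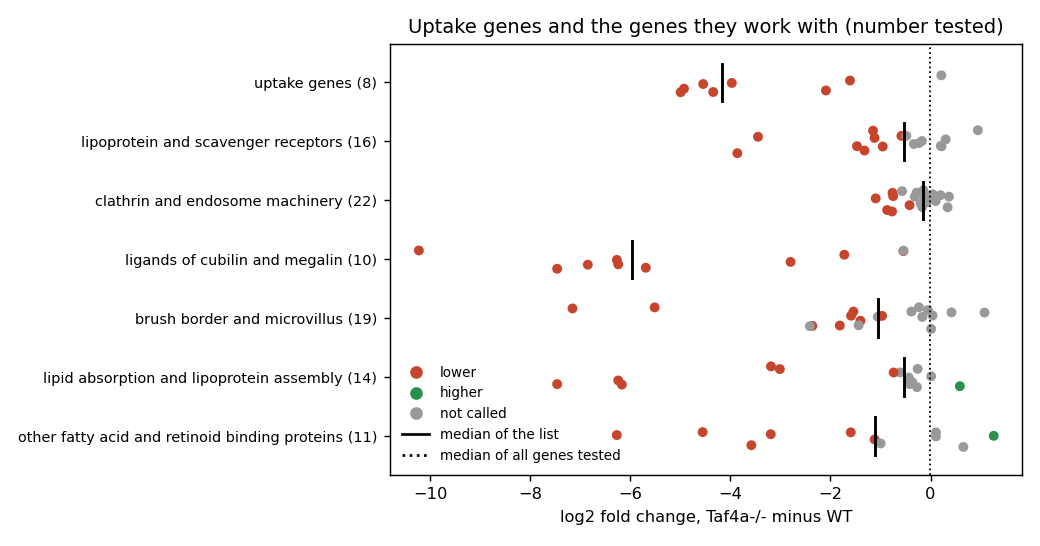
Log2 fold change between the libraries labelled Taf4a-/- and WT (horizontal axis) of each gene tested, for the uptake genes and 6 lists of genes they work with (number tested in brackets), coloured by call at an adjusted p-value under 0.05. Bars mark list medians, from -5.97 for the ligands to -0.16 for the clathrin and endosome machinery.

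The label of the set was compared with cell type markers. No list of liver markers was made, so that visceral endoderm and cells like liver were not told apart. In WT cultures, 16 visceral endoderm markers summed to 73347 and 66872 normalized counts. Not all were abundant, and *Cer1* had 151 and 17.7. In the libraries labelled *Taf4a*-/- the sums were 9957 and 9237, most of which was *Gata4* (3748 and 3193 normalized counts) and *Gata6* (2877 and 3432). Of the 16, 12 fell and none rose, with a median of -1.93. *Lgals2*, among the 12, reached the filter only through WT. *Ttr* and *Apoa1* stand in this list too. The markers named here were chosen after their values were seen. *Afp*, a secreted marker that gave most of the WT sums, fell from 42655 and 36728 normalized counts to 152 and 140 (log2 fold change -8.07, adjusted p = 1.1e-05). *Hnf4a*, a transcription factor known to drive absorptive genes, fell by 3.36 on the log2 scale (adjusted p = 0.000635), *Gata6* and *Gata4* fell by 0.78 and 0.63 (adjusted p = 0.00979 and 0.0323), and *Sox17* did not pass (-0.34, adjusted p = 0.352). Markers of parietal endoderm, the sister layer, had 2 of 11 genes lower, a share close to the 17.3% of all genes tested, and none higher (median -0.58).

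Markers of some other tissues that use these genes were counted in the same way, without a list for liver. Of all genes tested, 17.3% were lower and 11.3% higher. Of 11 gut epithelium markers, 9 were in the table and 7 tested. Of these, 3 fell and 1, *Cdx1*, rose, with sums of 1499 and 2058 normalized counts in WT, against 652 and 528. *Tff3* and *Muc13*, among the 3 that fell, reached the filter only through WT. *Cdx1* reached it only through the libraries labelled *Taf4a*-/-. Of 7 markers of the kidney tubule, where the same receptors work in the adult, 5 were in the table and 1, *Aqp1*, was tested. *Aqp1* fell, from 220 and 137 normalized counts in WT to 40.1 and 67.5. The 5 summed to 231 and 145 normalized counts in WT, against 47.0 and 75.2. Most of each sum was *Aqp1*, and the others had too few reads to be tested. *Slc34a1* was at 0 in both WT libraries and *Miox* in both of the others. *Lrp2* is also known in the neural tube and the early embryo. Neural tube markers summed to 939 and 358 normalized counts in WT, against 1138 and 956 in those labelled *Taf4a*-/-. Most of each sum was *Otx2* (706 and 246 against 861 and 763), which did not pass (limma adjusted p = 0.162). *Olig2* was the 1 of 5 tested that was higher, and the other 4 did not pass. Of 7 pluripotency markers, 6 were higher and none lower, with sums of 4772 and 1648 in WT and 14515 and 17004 in the others. The part of these cells in the level of *Lrp2* was not tested.

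The genes whose pattern over the 4 libraries was nearest to that of the members were *2810459M11Rik*, *Abca9*, *Prl2c5*, *Cd36* and *Pax1*. Nearness was the Euclidean distance between centred log2 values and the median profile of the 8 members tested, and ranged from 0.243 to 0.351 over these 5. *Cd36*, a fatty acid and lipoprotein receptor that stands in the list of scavenger receptors, had 583 and 659 normalized counts in WT, against 62.7 and 49.8, and fell by 3.45 on the log2 scale (limma adjusted p = 0.00102).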

How the data were processed

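Per the labels, polyA RNA of 4 libraries was sequenced after TruSeq v2 preparation, a kit that does not mark strand. The authors aligned the reads to mm9 (NCBI37), and the deposited values are counts per gene normalized by size factors, with DESeq named in the submitters' processing notes and its successor in the methods. The notes also name CASAVA 1.8, TopHat 1.3.3 and HTSeq 0.5.3p1. The annotation release and strand setting are not given in the sources used here. The deposited normalized counts have decimal commas. Each library's values were whole multiples of its smallest one (100%, within 0.001 of a read), which gave reads and size factors. Gene identifiers were matched to the annotation of NCBIM37, where exonic length is the union of exons. Models were fitted on log2(value + 1) by limma (version 3.58.1, R 4.3.3), its eBayes step run with trend=TRUE, and were tried on simulated reads. Intervals are 95%. For low genes, reads of the 2 libraries of a genotype were summed. Summaries and figures used Python 3.11.15, scipy 1.17.1 and matplotlib 3.10.9.

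The members, the gene lists and the rule for named genes were chosen with earlier results of these data known. Named were all members, and in each of the 6 lists of partner genes the lowest and highest log2 fold change and the highest WT means, up to 4 genes, as well as markers at 0 and the 5 genes nearest in pattern, except for 1 gene that is not reported here. Replicate numbers name lines, and deviations of same-numbered lines had a correlation of 0.01. Also tried were a replicate block, another pseudocount, filter, scaling, threshold or variance model, and leaving out each library.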

Additional observations from a re-analysis of the deposited data

How the results depend on the processing

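In 16 alternative settings, 7 members fell in each, except for 8 with no filter on low values (which adds *Fabp1*), 6 with a mean of at least 50 (which removes *Fabp2*), and 6 without WT replicate 1 or WT replicate 2 (where *Amn* did not pass). No member rose in any of them. *Lrp2* had a log2 fold change of -0.082 without the library labelled *Taf4a*-/- replicate 1, 0.51 without replicate 2 of that label, and a positive one in the other settings. The median over the members tested was -4.16, or -3.95 with *Fabp2* at a floor of 3 reads. It was -3.16 with pseudocount 10 and -3.54 with no filter, which adds 2 genes of few reads. With the replicate block, 7 members fell, and 2657 genes fell and 1536 rose. The numbers are not known to pair the lines.

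Among all genes, 2928 fell and 1906 rose. Leaving out the variance trend gave 1741 and 856, a threshold of 0.01 gave 1119 and 331, and asking for a 2-fold change gave 1936 and 747. Under quantile normalization the median of all genes was 0.11, and 52.2% of calls were higher against 39.4%. Clathrin and endosome genes that fell were 6, and 3, 2 and 1 in those first 3 settings. The other binding proteins that fell were 6, and 3 at a mean of at least 50. The cause was not tested.

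With 1 library left out, a lone library being assumed to vary like the others, the ranges were 6 to 7 members lower, -4.23 to -3.62 for their median, 1222 to 3038 genes lower, 624 to 2476 higher, 7 to 9 receptors, 2 to 6 clathrin genes, 7 to 8 ligands, 7 to 10 brush border genes, 4 to 7 lipid absorption genes and 4 to 6 other binding proteins. Of genes lower there were 1222 without WT replicate 2 and 1921 without the library labelled *Taf4a*-/- replicate 2, where 2 clathrin genes fell. Of genes higher there were 745 without WT replicate 2, and 625 and 624 without the library labelled *Taf4a*-/- replicate 1 and replicate 2. Voom on the recovered reads, chosen after seeing the data, gave 7 members lower. The edgeR and DESeq2 alternatives were not run.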

Other observations

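The WT lines ordered the genes of uptake and secretion in different ways. The genes below were chosen after their values were seen, and each comparison is of 1 line with another, without a test. Beside *Amn* and *Cubn*, WT replicate 1 had the higher value of *Apoa4*, an apolipoprotein of yolk sac and gut (821 against 167 normalized counts), of *Pdzk1*, a scaffold of brush border transporters (207 against 27.0), of *Cdhr2* (229.7 against 87.3) and of *Trf*, the iron carrier (533 against 256). WT replicate 2 had the higher value of *Alb* (1797 against 799), *Ambp* (609 against 270.0), the gene of a plasma protease inhibitor, *Gc* (152 against 78.0), which encodes the carrier of vitamin D, and *Krt20* (1162 against 384), a keratin of gut epithelium. *Pdzk1* did not pass the test between genotypes (log2 fold change -2.41, limma adjusted p = 0.114), with 22.5 and 7.74 normalized counts in those labelled *Taf4a*-/-.

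Among intracellular carriers outside the members, *Fabp4* fell from 49.97 and 66.5 normalized counts to 1.96 and 1.11 (log2 fold change -4.55, limma adjusted p = 0.00313). *Bcmo1*, which encodes the enzyme that cleaves beta-carotene to retinal, fell from 93.8 and 63.4 to 6.85 and 4.42 (-3.58, adjusted p = 0.00416). Both reached the mean of 10 only through WT, so that they had to differ to be tested. *Fabp3*, the heart form, had 226 and 367 normalized counts in WT, against 552 and 374 in those labelled *Taf4a*-/-, and did not pass (0.66, adjusted p = 0.149).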
